A study of Schizosaccharomyces pombe with 12 samples.

Results

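The genes described here are 9 protein-coding genes of fission yeast (Schizosaccharomyces pombe) that handle uracil and build pyrimidine nucleotides, out of 12683 genes in the count table. They were taken by their standard names: 4 uracil-regulated genes (urg1, SPAC1002.19; urg2, SPAC1002.17c; urg3, SPAC1002.18; uck2, SPAC1399.04c) and 5 genes of pyrimidine synthesis (ura1, SPAC22G7.06c; ura2, SPAC16.03c; ura3, SPAC57A10.12c; ura4, SPCC330.05c; ura5, SPBC725.15). The set was selected on the measured H2O2 responses of urg1 and urg2, which earlier work on these libraries had named for their size, and the other 7 genes were added by name. All 9 passed the filter on low counts, which 8166 genes passed. PolyA RNA was sequenced from WT strain 972 and from strains labelled ubp8 and ubp16, each either untreated or exposed to 1 mM H2O2 for 30 min, which gives 6 groups of 2 libraries. The series text calls both mutants deleted strains. Ubp8 is the ubiquitin protease of the SAGA coactivator complex, and Ubp16 is annotated as another ubiquitin hydrolase. All strains grew in rich YE5S medium, and neither the part of each gene removed nor the number of clones is given in the labels. Whether paired libraries stem from different cultures is not stated in the labels, so the p-values measure only the spread between these libraries, which may be technical.

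Cells make uridine monophosphate either from small precursors or from uracil that is taken up or released from RNA and nucleosides. In the synthetic route ura1 encodes carbamoyl-phosphate synthase and aspartate carbamoyltransferase in one protein, ura2 dihydroorotase, ura3 the mitochondrial dihydroorotate dehydrogenase, ura5 orotate phosphoribosyltransferase and ura4 orotidine 5'-phosphate decarboxylase, the familiar selection marker. In the uracil group, uck2 and urg2 are annotated as uracil phosphoribosyltransferases, the enzyme type that attaches uracil to a sugar phosphate. The product of urg1 is annotated as GTP cyclohydrolase II, and relatives of urg1 and urg3 belong to a uracil degradation pathway known from the yeast Lachancea kluyveri. The urg1 promoter is widely used in fission yeast as one that uracil switches on.

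Total counts per library ranged from 9904056 to 14054746. The ubp8 transcript was lower in both ubp8-labelled groups, at 26.2% of the WT level in untreated cells (log2 difference -1.93 ± 0.14 SE, edgeR adjusted p = 1.046e-06). The ubp16 transcript in untreated ubp16-labelled cells was at 46.5% of WT (-1.10 ± 0.15, edgeR adjusted p = 4.537e-05). These libraries had 22.2 and 25.0 CPM (counts relative to scaled library size), within the range of the treated WT libraries at 20.5 and 25.6 CPM. The treated ubp16-labelled libraries were lower, at 9.38 and 13.0 CPM. The level in untreated ubp16-labelled cells alone thus does not set them apart from treated WT cells. Neither transcript was at 0, with 101 to 146 counts of ubp8 in the ubp8-labelled libraries and 102 to 313 counts of ubp16 in the ubp16-labelled ones. All 5 synthesis genes were transcribed in every library, ura4 included, so no strain lacked the ura4 marker gene's RNA.

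The 4 uracil-regulated genes lie together on chromosome I. From urg2 to the end of uck2 the cluster spanned 10.7 kb, and between urg1 and uck2 lies toe1, which encodes a zinc cluster transcription factor. A single gap of 505 bases separates the divergent genes urg2 and urg3, 1442 bases separate urg3 from urg1, and 624 bases separate uck2 from fur4, which encodes the uracil permease. The 250 bases before the annotated starts of urg1, urg3 and urg2 are shown because urg1 and urg2 had the widest ranges of group mean levels, as a ratio of highest to lowest, among the members and urg3 shares its upstream region with urg2. That of uck2 is not shown, since its annotated start is the start of its coding sequence. They were read by gene ID from the RefSeq genome ASM294v3, since the count table holds no coordinates. Capitals mark matches to TATAAA or CCGCGG.
urg1, chrI:1835004-1835253, plus strand: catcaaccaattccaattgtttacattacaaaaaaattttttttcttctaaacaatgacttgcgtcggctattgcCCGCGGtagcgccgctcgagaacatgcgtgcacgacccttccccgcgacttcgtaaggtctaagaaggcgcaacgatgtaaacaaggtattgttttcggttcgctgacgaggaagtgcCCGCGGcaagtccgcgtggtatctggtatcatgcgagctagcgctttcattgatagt
urg3, chrI:1831855-1832104, plus strand: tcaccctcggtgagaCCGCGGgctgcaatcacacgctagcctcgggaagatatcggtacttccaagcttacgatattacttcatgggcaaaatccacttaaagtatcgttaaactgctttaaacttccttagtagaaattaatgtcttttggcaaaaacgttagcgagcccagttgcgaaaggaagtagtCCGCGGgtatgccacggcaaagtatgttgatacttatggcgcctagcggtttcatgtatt
urg2, chrI:1831600-1831849, minus strand: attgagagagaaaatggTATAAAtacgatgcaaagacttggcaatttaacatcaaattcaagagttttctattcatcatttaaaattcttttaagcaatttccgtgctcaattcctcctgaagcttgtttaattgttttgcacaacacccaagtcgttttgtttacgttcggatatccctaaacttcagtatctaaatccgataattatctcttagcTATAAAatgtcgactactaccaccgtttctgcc

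CCGCGG, a palindrome, was picked out only after the windows of urg1 and urg3 had been read, so its presence there is a description. Windows of 300 bases (250 before and 50 after the start) were searched on both strands for all 5112 coding genes that had one, and 44 of them (0.861%) held CCGCGG. The urg1 window held it at -175 and -57, and the urg3 window at -235 and -60. Only 8 windows (0.156%) held it at least 2 times, and urg1 and urg3 were among them. The uck2 window held 1 match at -242, while the urg2 window held none. Since urg2 and urg3 are divergent, the matches of the urg3 window also lie 271 and 446 bases before the start of urg2. None of the ura1 to ura5 windows held CCGCGG. Among 13 other genes of pyrimidine uptake, salvage and interconversion, 3 had it: urh1 (uridine ribohydrolase) at -186, urk1 (uridine kinase and uracil phosphoribosyltransferase) at -75, and ura6 (uridylate kinase) at -86 and -75. Of the motifs listed for stress factors, TGACGT (in 5.91% of windows) and TTACTAA (in 12%) were in none of the 4 uracil-regulated windows. GATAAG (in 11.6% of windows) was found once in uck2 and once in toe1, and TTACTAA once in ura3. TATAAA was in 48.1% of windows and in all of the 9 members' windows except those of urg3 and ura1.

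In WT cells the uracil-regulated genes had far lower levels after treatment than before it. Levels are given as CPM, counts relative to library size after edgeR's TMM scaling. For urg1 the untreated WT libraries had 541.9 and 938.4 CPM and the treated ones 31.9 and 26.1 CPM. The untreated and treated libraries were far apart, and the untreated pair differed more from each other than the treated pair. By level per kilobase, urg1 went from rank 328 to rank 3763 of 4954 coding genes, urg2 from 211 to 2427, urg3 from 551 to 3043 and uck2 from 802 to 3599. The log2 difference was -4.68 ± 0.26 (SE, n = 2 per group), so the treated level was 3.91% of the untreated one. That of urg2, with 570.4 and 855.4 CPM untreated and 41.6 and 42.7 CPM treated, was -4.08 ± 0.21. Since urg1 and urg2 were selected on such changes, they are described throughout without a test.

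The other uracil-regulated genes, urg3 and uck2, fell in WT. Both lie in the cluster of the selected genes and moved with urg1 over the 12 libraries (Pearson r of 0.99 and 0.976). Their tests, here and below, are therefore not independent of the selection on urg1 and urg2. The urg3 libraries had 327.5 and 445.6 CPM untreated and 46.3 and 49.9 CPM treated, a change of -3.01 ± 0.14 (edgeR adjusted p = 6.069e-11). For uck2 they had 98.8 and 106.0 CPM untreated and 12.7 and 11.4 CPM treated, a change of -3.09 ± 0.14 (edgeR adjusted p = 4.087e-11). In both genes each treated library was below each untreated one. With 2 libraries a group this can arise by order alone, and the share of all genes with such a gap was not counted.

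The synthesis genes moved little in WT cells. The ura3 gene fell from 747.9 and 746.4 CPM to 454.1 and 451.6 CPM (-0.72 ± 0.10, edgeR adjusted p = 1.066e-05). A smaller fall was seen in ura5, from 244.3 and 253.7 CPM to 195.6 and 196.2 CPM (-0.35 ± 0.08, edgeR adjusted p = 0.001399). The other 3 did not pass the test, with log2 differences of -0.16 for ura1, -0.07 for ura2 and 0.01 for ura4 (edgeR adjusted p of 0.1688, 0.5641 and 0.9477). In all, 4 of the 7 tested members were called, all lower, beside 53.2% of all genes called in either direction (26.2% higher and 27% lower), so the count of members called was near the background. Over the 4954 coding genes of this fit, which is the class of the members, 29.7% were higher and 36.5% lower. The median log2 difference of the 4 uracil-regulated genes was -3.58, that of the 5 synthesis genes -0.16 and that of all genes -0.04. The first of these includes urg1 and urg2, which were selected on their responses, while urg3 and uck2 had -3.01 and -3.09. Scaling by library totals shifted the median of all genes to -0.23 and brought the count of members called to 7, all lower. In pooled RNA from a culture, fewer cells with a transcript and less of it per cell cannot be told apart.

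**Figure D1:**
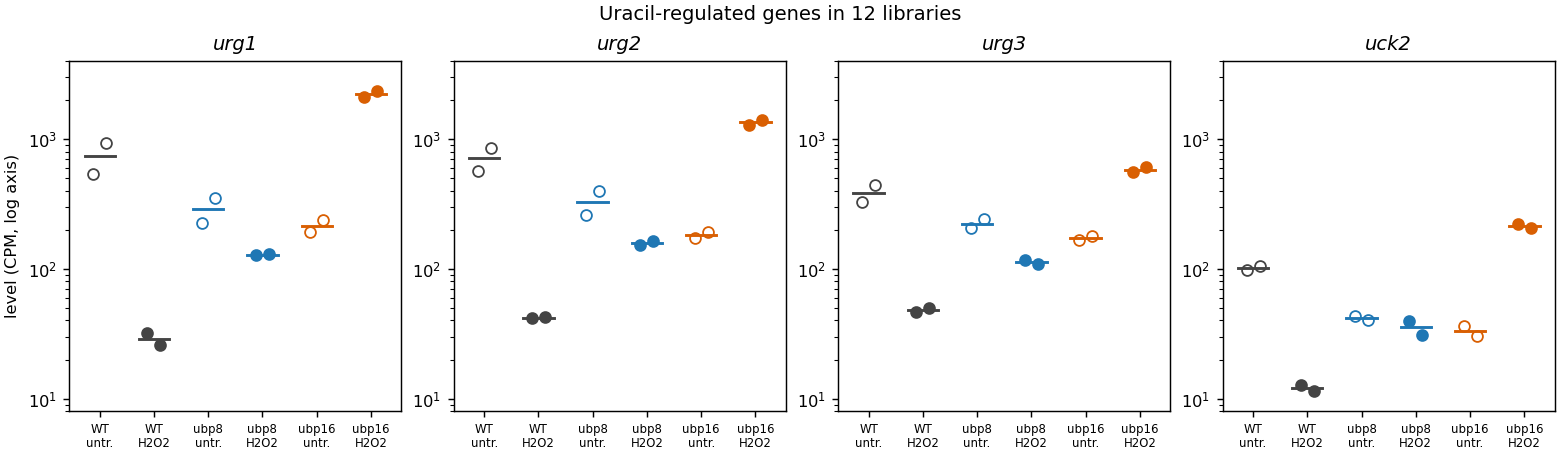
Levels of urg1, urg2, urg3 and uck2 in CPM (log axis) in each of the 12 libraries, with open points for untreated and filled points for treated cells, and a line at each group mean. Treated WT libraries are the lowest of all in each gene and treated ubp16 libraries the highest, at 2101 and 2339 CPM for urg1.

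In the ubp8 strain the uracil-regulated genes were lower before treatment and changed less with it. Its urg1 libraries had 226.3 and 354.0 CPM untreated and 126.8 and 131.1 CPM treated, a log2 difference of -1.17 ± 0.22. For urg2 they had 258.5 and 401.6 CPM untreated and 152.2 and 163.8 CPM treated (-1.06 ± 0.18). The untreated pair was again spread more widely than the treated pair. The urg3 gene fell from 205.0 and 241.9 CPM to 117.2 and 108.6 CPM (-0.98 ± 0.13, edgeR adjusted p = 7.391e-06). With 43.0 and 40.5 CPM untreated and 39.9 and 31.0 CPM treated, uck2 did not pass the test (-0.23 ± 0.12, edgeR adjusted p = 0.1184). That result depended on the fit. The uck2 gene was called lower with library totals (-0.55, edgeR adjusted p = 0.00301), with coding genes alone (-0.34, 0.0247), with no low-count filter (-0.32, 0.018) and with a mean of at least 50 counts (-0.33, 0.0283). It was also called without the first treated ubp8 library (-0.52, edgeR adjusted p = 0.00669), and without the second untreated WT library or either treated WT library (all -0.31, edgeR adjusted p of 0.0428, 0.0488 and 0.0484). Over all single libraries left out, its value lay between -0.52 and -0.14. Without the second untreated ubp8 library the urg2 value was -0.70.

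Of the synthesis genes in the ubp8 strain, ura3 fell from 601.6 and 507.8 CPM to 311.2 and 296.7 CPM (-0.87 ± 0.10, edgeR adjusted p = 1.607e-06). The fall of ura5 was -0.43 ± 0.08 (edgeR adjusted p = 0.0002133), and its treated libraries, at 150.7 and 148.2 CPM, lay below the untreated ones at 206.2 and 197.1 CPM. The ura1 gene fell by 0.31 on the log2 scale (edgeR adjusted p = 0.01081), a call that was lost without the first untreated ubp8 library (edgeR adjusted p = 0.0703). The values for ura2 and ura4 were both 0.07 and not called (edgeR adjusted p of 0.5522 and 0.5832). Here 4 of the 7 tested members were called, all lower, against 53.8% of all genes in either direction (28% higher and 25.8% lower; 38.5% and 26.8% of coding genes). With library totals all 7 were called lower, on a median of all genes that moved from -0.06 to -0.38.

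In the ubp16 strain the uracil-regulated genes went the other way. Its urg1 libraries had 192.1 and 236.1 CPM untreated and 2101 and 2339 CPM treated. The treated level was 10.4 times the untreated one (log2 difference 3.38 ± 0.23), and with rank 177 of 4954 coding genes urg1 stood higher by level per kilobase than in any other group. For urg2 the libraries had 173.6 and 193.5 CPM untreated and 1297 and 1417 CPM treated (2.89 ± 0.19). Both genes were above every untreated library of any strain in the treated ubp16 pair.

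The urg3 gene rose in the ubp16 strain from 168.0 and 178.8 CPM to 554.6 and 609.7 CPM (1.75 ± 0.13, edgeR adjusted p = 1.16e-08). The rise of uck2 was from 36.3 and 30.5 CPM to 222.1 and 208.2 CPM (2.68 ± 0.12, edgeR adjusted p = 4.984e-11). In each of the 4 genes the treated ubp16 libraries held the highest levels of the study and the treated WT libraries the lowest.

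In the ubp16 strain 4 of the 5 synthesis genes fell. The ura3 gene went from 508.6 and 465.6 CPM to 148.1 and 143.9 CPM, 30.0% of the untreated level (-1.74 ± 0.10, edgeR adjusted p = 9.488e-10). The ura5 gene fell from 158.0 and 160.7 CPM to 74.3 and 75.2 CPM (-1.09 ± 0.08, edgeR adjusted p = 1.339e-08). Both were the lowest values these genes had in any group. The fall in ura4 was from 181.5 and 205.4 CPM to 116.9 and 119.0 CPM (-0.71 ± 0.10, edgeR adjusted p = 2.176e-05). From 622.3 and 654.8 CPM, ura1 fell to 399.4 and 424.3 CPM (-0.63 ± 0.10, edgeR adjusted p = 3.535e-05). The treated ura2 libraries, at 68.7 and 77.7 CPM, were below the untreated ones at 82.7 and 83.5 CPM, but the difference was not called (-0.18 ± 0.10, edgeR adjusted p = 0.13). In all, 2 members were higher and 4 lower among the 7 tested, beside 50.3% of all genes called (25.2% in each direction), and 31.1% of coding genes higher and 32.7% lower. The median of the 4 uracil-regulated genes was 2.78, that of the synthesis genes -0.71 and that of all genes -0.05. The first of these again includes the selected genes urg1 and urg2, while urg3 and uck2 had 1.75 and 2.68.

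**Figure D2:**
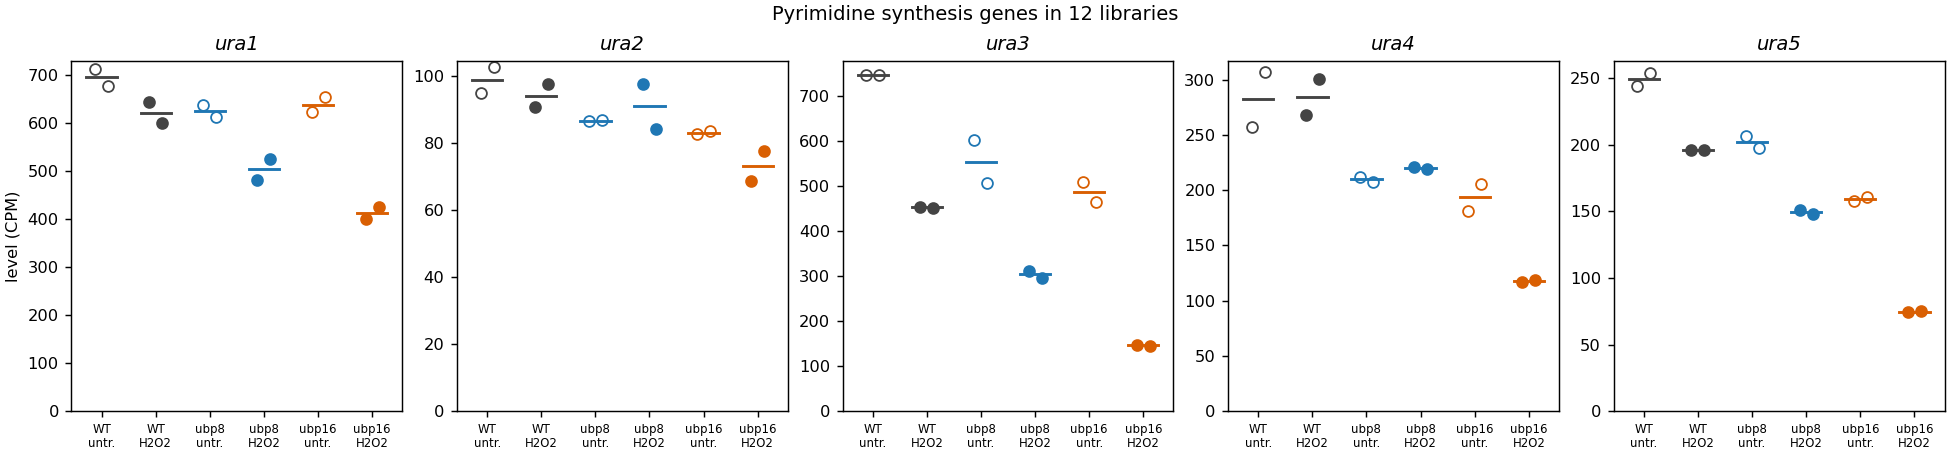
Levels of ura1 to ura5 in CPM in each of the 12 libraries, with open points for untreated and filled points for treated cells and a line at each group mean (each panel has its own scale, from 0). The treated ubp16 libraries are the lowest in every panel, at 148.1 and 143.9 CPM for ura3.

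The difference between the strains' responses was tested as an interaction in the same fit, that is, the log2 response of the mutant minus that of WT. For ubp16 it was 4.75 ± 0.19 in urg3 (edgeR adjusted p = 6.949e-11) and 5.77 ± 0.18 in uck2 (edgeR adjusted p = 8.051e-12). The untested values were 8.05 ± 0.35 in urg1 and 6.97 ± 0.28 in urg2, genes that were selected on their responses. On the synthesis side the value was negative in ura3 (-1.02 ± 0.14, edgeR adjusted p = 5.78e-05), ura5 (-0.75, edgeR adjusted p = 0.0001388) and ura4 (-0.72, edgeR adjusted p = 0.00136). It was also negative in ura1 (-0.47, edgeR adjusted p = 0.01531), although that call was lost when any one of 3 single libraries was left out: the second untreated WT library (edgeR adjusted p = 0.0628), the first treated WT library (0.0734) or the first treated ubp16 library (0.0775). The ura2 value of -0.11 was not called (edgeR adjusted p = 0.5813). Thus 6 of the 7 tested members had a different response in ubp16 than in WT, 2 higher and 4 lower, beside 27.4% of all genes (13% higher and 14.4% lower) and of coding genes 18% higher and 17.3% lower.

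For ubp8 the interaction separated the 2 sets of genes in another way. It was 2.02 ± 0.19 in urg3 (edgeR adjusted p = 1.152e-05) and 2.86 ± 0.18 in uck2 (edgeR adjusted p = 4.181e-07), with 3.51 and 3.02 in urg1 and urg2, which were not tested. None of the 5 synthesis genes was called by edgeR (unadjusted p from 0.27 to 0.6776), and their values lay between -0.15 and 0.14. The 2 members called compare with 16.8% of all genes (10.5% higher and 6.34% lower), and with 16.8% of coding genes higher and 3.75% lower. Both interactions use the same WT libraries, so they are not independent of each other.

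**Figure D3:**
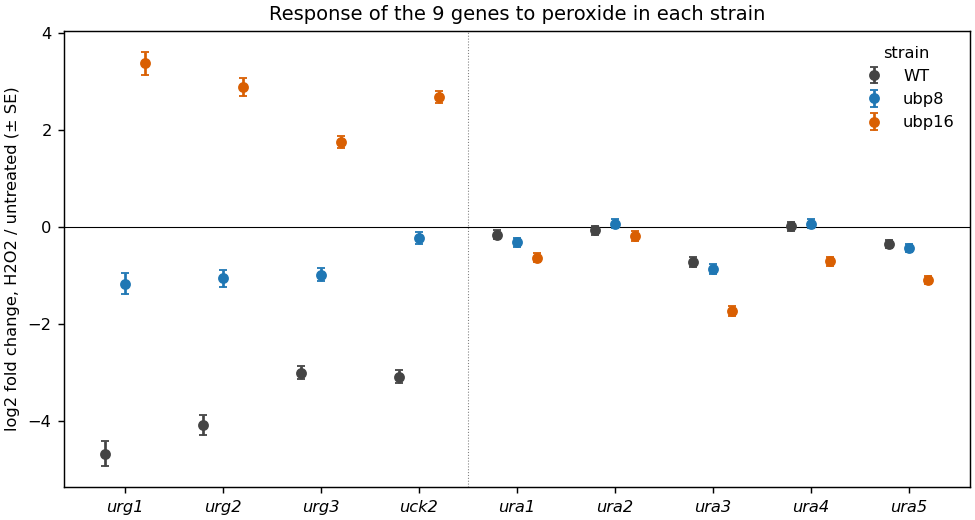
Log2 response to H2O2 (treated over untreated, ± SE from the edgeR fit) of the 9 genes in WT, ubp8 and ubp16. The uracil-regulated genes spread from -4.68 to 3.38, and the synthesis genes from -1.74 to 0.07.

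The strains already differed before treatment. Compared with untreated WT, the untreated ubp16 strain had less urg3 (-1.16 ± 0.13, edgeR adjusted p = 5.279e-06) and less uck2 (-1.61 ± 0.12, edgeR adjusted p = 4.634e-08), and the untested values were -1.79 in urg1 and -1.96 in urg2. Of the synthesis genes, ura5 (-0.64, edgeR adjusted p = 1.603e-05), ura3 (-0.62, edgeR adjusted p = 0.0002172) and ura4 (-0.55, edgeR adjusted p = 0.0007418) were lower too. The ura1 and ura2 genes were not called (-0.12 and -0.25, edgeR adjusted p of 0.3792 and 0.06605), but ura2 was called lower with coding genes alone (-0.30, edgeR adjusted p = 0.0169) and with a mean of at least 50 counts (-0.26, edgeR adjusted p = 0.0332). So 5 of the 7 tested members were lower, beside 25.6% of all genes called in either direction (14.3% higher and 11.3% lower) and 13.3% of coding genes lower.

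The untreated ubp8 strain also had less urg3 (-0.79 ± 0.13, edgeR adjusted p = 0.0005349) and less uck2 (-1.29 ± 0.12, edgeR adjusted p = 5.467e-06) than untreated WT. The untested values were -1.35 in urg1 and -1.11 in urg2, and without the second untreated WT library these were -0.84 and -0.73. The urg3 value without that library was -0.49 (edgeR adjusted p = 0.0176), and with library totals it was also -0.49 and called. The falls of ura3 and ura4, both -0.43, and of ura5, -0.30, passed the test here (edgeR adjusted p of 0.003877, 0.004363 and 0.007326), so that 5 of 7 members were called lower beside 38.9% of all genes (15.1% higher and 23.8% lower). Over the 4954 coding genes of the same fit 6.46% were higher and 38.4% lower, with a median of -0.21. Those 3 synthesis calls were not stable. All were lost with library totals, which left 2 members called and moved the median of all genes from -0.01 to 0.28, and all were lost without the second untreated WT library (edgeR adjusted p of 0.0559, 0.155 and 0.141). The ura5 call was also lost with coding genes alone, with no low-count filter, with a mean of at least 50 counts and with only the libraries compared (edgeR adjusted p of 0.118, 0.0932, 0.131 and 0.0825). With coding genes alone ura3 and ura4 were both at -0.26 (edgeR adjusted p of 0.0464 and 0.0367). Without the second untreated ubp8 library 3 members were called, as ura3 and ura5 dropped out.

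After treatment the mutants were on the other side of WT in the uracil-regulated genes. The ubp16 strain had 12.1 times as much urg3 as treated WT (edgeR adjusted p = 1.763e-11) and 17.9 times as much uck2 (edgeR adjusted p = 3.217e-12). The ratios of urg1 and urg2, not tested, were 76.7 and 32.2. All 5 synthesis genes were lower in it, from -1.63 ± 0.10 in ura3 (edgeR adjusted p = 2.281e-09) to -0.37 ± 0.10 in ura2 (edgeR adjusted p = 0.004795). The ura2 call was lost without the second treated WT library (edgeR adjusted p = 0.0626) or the first treated ubp16 library (0.0938). All 7 tested members were thus called, 2 higher and 5 lower, beside 55.2% of all genes (28.7% higher and 26.5% lower).

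In the uracil-regulated genes the treated ubp8 strain stood between the other strains. It had 2.35 times as much urg3 as treated WT (edgeR adjusted p = 1.065e-05) and 2.96 times as much uck2 (edgeR adjusted p = 1.453e-06), with untested ratios of 4.45 for urg1 and 3.75 for urg2. Lower were ura3 (-0.58 ± 0.10, edgeR adjusted p = 0.0004616), ura5 (-0.39, edgeR adjusted p = 0.001545), ura4 (-0.37, edgeR adjusted p = 0.01057) and ura1 (-0.30, edgeR adjusted p = 0.02253). The ura1 call was lost without the first treated WT or the first treated ubp8 library (edgeR adjusted p of 0.118 and 0.142) and with library totals (0.192), and the ura4 call without the second treated WT library (0.0841). In all, 6 of 7 members were called, 2 higher and 4 lower, beside 32.3% of all genes (16.6% higher and 15.7% lower).

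Neighbouring groups did not overlap in urg2 or urg3, and they did not in the synthesis gene ura5 either. With 2 libraries a group this can arise by order alone, and the share of all genes without such overlap was not counted. The urg2 gene was also selected on its response. Over the 6 groups, urg2 and urg3 had the same order of levels: treated ubp16, untreated WT, untreated ubp8, untreated ubp16, treated ubp8 and treated WT. In urg1 the order was also this one, except that untreated ubp8 (226.3 and 354.0 CPM) and untreated ubp16 (192.1 and 236.1 CPM) overlapped. In uck2, treated ubp8 and untreated ubp16 overlapped and changed places. The synthesis genes had another order, in which treated ubp16 was the lowest group for all 5 and untreated WT had the highest mean for all but ura4. In ura4 the treated and untreated WT libraries overlapped, with means of 284.2 and 282.3 CPM. Untreated ubp16, untreated ubp8 and treated WT overlapped in ura1, where their means were 638.6, 626.0 and 621.7 CPM. In ura2 the untreated WT, treated WT and treated ubp8 libraries overlapped, with means of 98.9, 94.2 and 91.0 CPM, while untreated ubp8, at 86.5 and 87.0 CPM, overlapped only treated ubp8. Untreated ubp8 and untreated ubp16 overlapped in ura3.

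The levels of the 2 sets were also summed per kilobase of exon, as a description, since urg1 and urg2, which were selected on their responses, made up 55.4% to 80.2% of the uracil-regulated sum. In untreated WT the 4 uracil-regulated genes together stood at 1.19 and 1.68 times the level of the 5 synthesis genes. In treated WT that ratio was 0.130 and 0.123. It was 0.673 and 1.03 in untreated ubp8 against 0.552 and 0.559 in treated ubp8, which changed less than in WT. In the ubp16 strain it went from 0.599 and 0.651 to 8.78 and 9.25. The treated ubp16 libraries had 3131 and 3395 CPM per kilobase for the uracil-regulated genes and 356.9 and 367.0 for the synthesis genes, so both sums contributed to the ratio. With urg3 and uck2 alone, the ratio to the synthesis genes was 0.334 and 0.392 in untreated WT, 0.0568 and 0.0549 in treated WT, 0.211 and 0.206 in untreated ubp16 and 1.85 and 1.83 in treated ubp16. On these genes it was thus above 1 in the treated ubp16 libraries, and below 1 in the untreated WT libraries, unlike the sum of all 4. In ubp8 it was 0.218 and 0.259 untreated against 0.202 and 0.177 treated. As a share of all counts, the 4 uracil-regulated genes took from 0.0111% in a treated WT library to 0.407% in a treated ubp16 library. Expressed as the median log2 response of one set minus that of the other, uracil-regulated less synthesis was -3.42 in WT, -0.71 in ubp8 and 3.5 in ubp16, values that include urg1 and urg2. Without the second untreated ubp8 library the ubp8 value was -0.42.

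**Figure D4:**
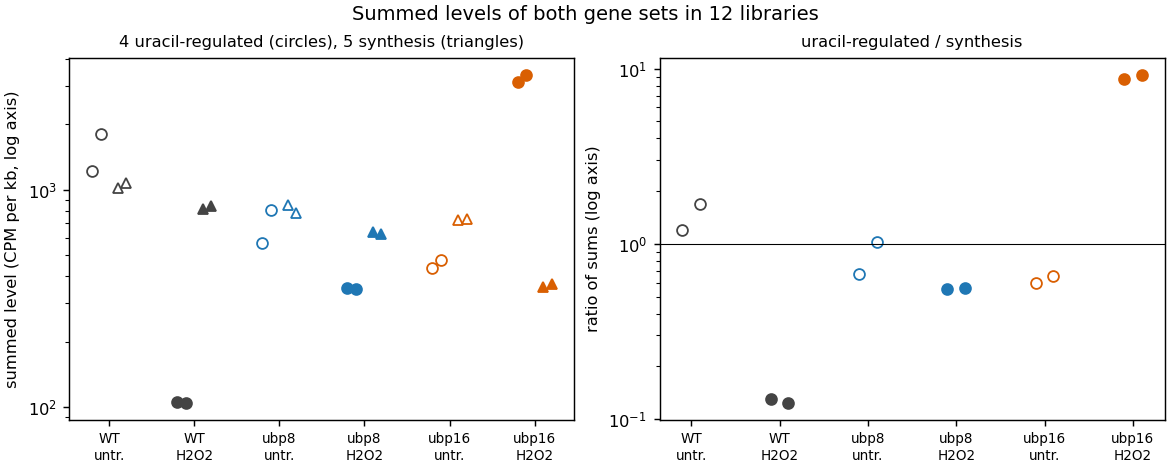
Left, summed levels in CPM per kilobase (log axis) of the 4 uracil-regulated genes (circles) and the 5 synthesis genes (triangles) in each library; right, the ratio of both sums (log axis), with a line at equality. Open points are untreated and filled points treated cells; the treated WT libraries lie at 0.130 and 0.123 and the treated ubp16 libraries at 8.78 and 9.25.

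Within each set the genes moved together over the 12 libraries. Pearson's r of log2 CPM among urg1, urg2, urg3 and uck2 ranged from 0.96 to 0.993, and among ura1 to ura5 from 0.642 for ura1 with ura2 to 0.968 for ura3 with ura5. Between the sets it was negative for all pairs, from -0.271 to -0.655. These values are descriptions over libraries that share 6 groups. Treated ubp16 was the highest group in every uracil-regulated gene and the lowest in every synthesis gene. In the WT and ubp8 responses, by contrast, the members called in both sets were all lower. The urg2, uck2 and urk1 genes, all annotated as uracil phosphoribosyltransferases, shared no exact run of more than 10 bases. No reads were aligned here, and the part of misassigned reads in their counts was not tested.

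Among 4785 coding non-members with a mean of at least 50 counts, isp7 (r = 0.96) and SPBC1861.05 (r = 0.961) were the most like urg1 over the 12 libraries. The isp7 gene is annotated in the 2-oxoglutarate-Fe(2+) oxygenase superfamily, and its responses were -2.79 in WT, -0.50 in ubp8 and 1.62 in ubp16, given without a test because the gene was picked for this likeness in the same libraries. SPBC1861.05, a carbohydrate kinase by annotation, followed the same order in smaller steps, at -0.83, -0.28 and 0.38. The next were pbr1, SPBC1773.03c and SPAC806.02c. Most like the mean of ura1 to ura5 were SPAC29A4.02c (translation elongation factor EF-1 gamma, r = 0.996), SPBC16H5.08c, mta1, tam10 and rpa43 (a subunit of RNA polymerase I, r = 0.986).

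Of the genes flanking the cluster, tna1 and fur4 fell in ubp16, where the members of the cluster rose. In WT the fall of tna1 was close to that of urg2 (-4.08). On the urg2 side, tna1, which encodes a nicotinic acid transporter, fell in all 3 strains (-4.06, -3.29 and -2.46 in WT, ubp8 and ubp16, edgeR adjusted p of 3.625e-09, 7.33e-09 and 8.307e-08). Its fall was smaller in ubp16 than in WT (interaction 1.6 ± 0.38, edgeR adjusted p = 0.005391), and the ubp8 interaction was not called (0.77, edgeR adjusted p = 0.2142). The treated tna1 libraries held 9 and 11 counts in WT, 23 and 23 in ubp8 and 43 and 37 in ubp16. Inside the cluster, toe1 fell in WT (-0.96 ± 0.14, edgeR adjusted p = 1.98e-05), was not called in ubp8 (0.05, edgeR adjusted p = 0.7872) and rose in ubp16 (0.49 ± 0.13, edgeR adjusted p = 0.00441). Its interaction was 1.45 for ubp16 (edgeR adjusted p = 3.371e-05) and 1.00 for ubp8 (edgeR adjusted p = 0.003159), so toe1 differed between strains in the direction of its neighbours, with a smaller range. For toe2 and toe3, which share its list of transcription factor genes but lie outside the cluster, the ubp16 interactions were 0.05 and 0.08 and not called (edgeR adjusted p of 0.8621 and 0.7536). On the uck2 side, the permease gene fur4 fell in WT (-0.69, edgeR adjusted p = 2.818e-06) and in ubp16 (-0.45, edgeR adjusted p = 0.0003857). In ubp8 it was not called (-0.16, edgeR adjusted p = 0.1093). The interaction of fur4 was 0.52 ± 0.12 for ubp8 (edgeR adjusted p = 0.008581), in the direction of the cluster genes, and was not called for ubp16 (0.24, edgeR adjusted p = 0.1595).

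**Figure D5:**
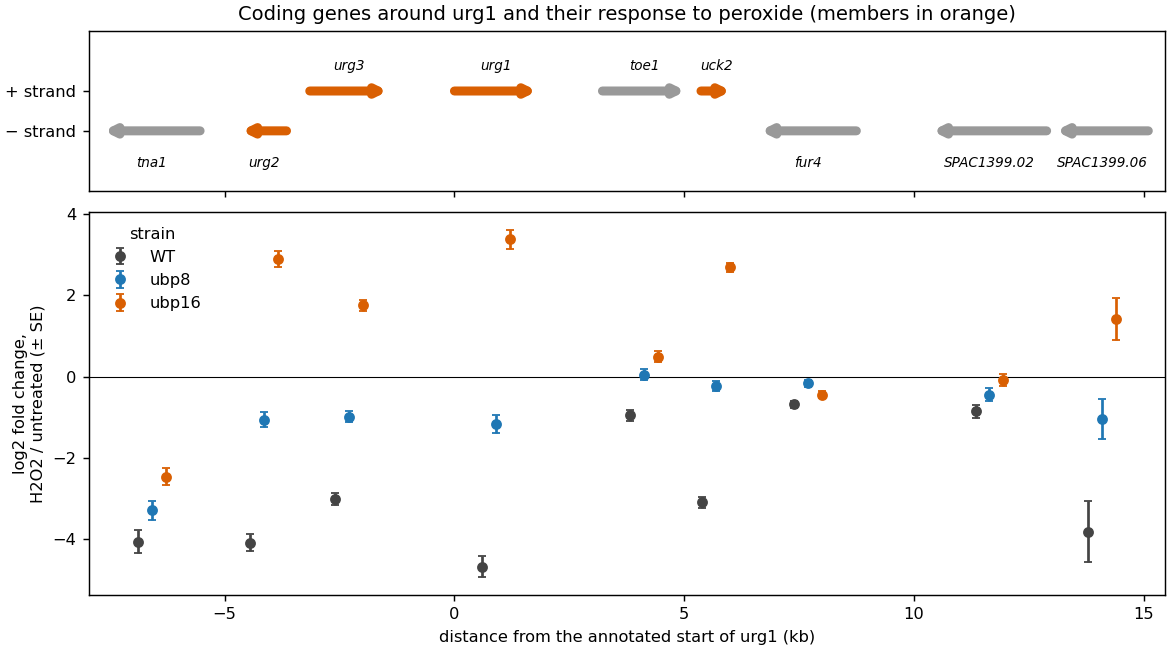
Above, the coding genes around urg1 by strand and distance from its annotated start in kb, members in orange; below, the log2 response of each gene to H2O2 in WT, ubp8 and ubp16 (± SE). The responses of urg2, urg3, urg1 and uck2 in ubp16 lie above 0, from 1.75 to 3.38, while tna1 at one side and fur4 at the other lie below 0.

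Other genes of the pathway were read from a list of 18 names, of which 13 matched and were tested. In WT 5 rose and 7 fell, in ubp8 6 rose and 3 fell, and in ubp16 9 rose and 4 fell. Over all genes 26.2% rose and 27% fell in WT, 28% and 25.8% in ubp8, and 25.2% each way in ubp16. Over coding genes alone, which all of the list are, the shares were 29.7% and 36.5% in WT, 38.5% and 26.8% in ubp8, and 31.1% and 32.7% in ubp16. The median of the list was -0.28 in WT, 0.24 in ubp8 and 0.46 in ubp16, beside -0.04, -0.06 and -0.05 for all genes and -0.08, 0.08 and -0.02 for coding genes. The largest rise in ubp16 was that of urh1, which releases uracil from uridine, from 9.77 and 11.3 CPM to 81.9 and 79.9 CPM (2.95 ± 0.17, edgeR adjusted p = 6.26e-10). Unlike the cluster genes, urh1 rose in WT too (0.59, edgeR adjusted p = 0.005187), and its ubp16 interaction was 2.36 ± 0.23 (edgeR adjusted p = 1.862e-06).

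The salvage gene urk1 was closer to the cluster in pattern. It fell in WT (-1.66 ± 0.10, edgeR adjusted p = 1.296e-09) and in ubp8 (-1.05, edgeR adjusted p = 1.788e-07) and rose in ubp16 (0.46, edgeR adjusted p = 0.0008257), with an interaction of 2.12 ± 0.14 for ubp16 (edgeR adjusted p = 2.473e-08). The uridylate kinase gene ura6 had smaller changes of the same signs in WT and ubp16 (-0.32 and 0.41, edgeR adjusted p of 0.009093 and 0.00153). In ubp8, where urk1 fell, ura6 rose (0.24, edgeR adjusted p = 0.03631). The cytidine deaminase gene cdd1 was not called in WT (0.00, edgeR adjusted p = 0.9908) and rose in ubp16 (1.50 ± 0.19, edgeR adjusted p = 4.82e-06). On the side of synthesis, cts1, the CTP synthase gene, fell in all 3 strains (-1.04, -1.15 and -1.66), and its ubp16 interaction was -0.62 (edgeR adjusted p = 0.002615). The dUTPase gene dut1 fell by a like amount in each strain, at -2.49, -2.55 and -2.34.

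The 3 pathway genes with CCGCGG, urh1, urk1 and ura6, all had a positive ubp16 interaction (2.36, 2.12 and 0.73). In their whole list of 13 genes, 6 had a called positive ubp16 interaction and 2 a negative one, with a median of 0.43. Of the 41 tested non-members with CCGCGG, urh1, urk1 and ura6 included, 13 (31.7%) had a called positive ubp16 interaction. In 7 (17.1%) it was negative, and the median of the 41 was 0.19. All of these are coding genes, and over the 4954 coding genes of the same fit the shares were 18% and 17.3%, with a median of 0.02. In the WT response 24.4% of the 41 were higher and 36.6% lower, beside 29.7% and 36.5% of coding genes. In the ubp8 response these were 36.6% and 29.3%, beside 38.5% and 26.8%. In the ubp16 response they were 36.6% and 29.3%, beside 31.1% and 32.7%. In the ubp8 interaction they were 26.8% and 2.44%, beside 16.8% and 3.75%. The motif was chosen from members' windows, and none of the differences between these shares was tested.

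Genes of purine synthesis, the parallel nucleotide pathway, were compared as a second list (17 names, 13 matched). In the WT and ubp8 responses 2 rose and 7 fell in each strain, beside 27% of all genes and 36.5% of coding genes falling in WT, and 25.8% and 26.8% in ubp8. In the ubp16 response 1 rose and 10 fell, with a median of -0.63, beside 25.2% of all genes in each direction and 32.7% of coding genes falling. Against treated WT 1 was higher and 11 lower in treated ubp16, with a median of -0.80, beside 28.7% of all genes higher and 26.5% lower (37.7% and 27.6% of coding genes). The lower ones included gua2 (GMP synthase, -1.62 ± 0.11, edgeR adjusted p = 3.548e-09) and ade8 (adenylosuccinate lyase, -1.31 ± 0.10, edgeR adjusted p = 1.179e-08). The 6 genes often used as auxotrophic markers (ura4, leu1, his3, lys1, arg3 and ade6) were all lower in treated ubp16 than in treated WT, between -1.32 and -0.82. In the ubp16 response itself 1 of these 6 genes rose, 2 fell and 3 were not called, with a median of -0.14. In the WT response 4 rose, beside 26.2% of all genes and 29.7% of coding genes, none fell, and the median was 0.72. Whether the response of ura1 to ura5 in ubp16 differed from that of these lists was not tested.

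Annotated non-coding genes overlapped 5 of the members on the opposite strand. SPNCRNA.2608 covers 79.8% of ura3 and rose as ura3 fell, from 2 and 2 counts to 12 and 11 counts in WT (2.59 ± 0.82, edgeR adjusted p = 0.01361) and from 11 and 7 to 204 and 149 counts in ubp16 (4.50 ± 0.45, edgeR adjusted p = 3.752e-07). Even so it held far fewer counts than ura3 in the same libraries, which had 1610 and 1440 in treated ubp16, and its part in the ura3 values was not tested. SPNCRNA.2833, which covers 87.6% of urg1, had 3 to 40 counts in the 12 libraries and was not called in any comparison (edgeR adjusted p of at least 0.1433). The library kit marks strand, but the strand setting used in counting is not stated in the labels.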

How the data were processed

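PolyA RNA libraries were made with a stranded TruSeq kit after hot phenol extraction, per the labels' protocols. The authors deposited 1 table of raw counts per gene, and the tools listed in the submitters' processing notes, with no version, are FastQC, Trimmomatic, the aligner STAR, the counter HTSeq and DESeq2. Neither genome build nor counting options are stated in these sources. All 9 members and the gene lists were chosen with earlier results of these data known, and urg1 and urg2 therefore have no test. Counts of all 12 libraries were fitted with edgeR 4.0.16 (R 4.3.3, limma 3.58.1): TMM scaling, filterByExpr (8166 of 12683 genes), 1 mean per group, 6 residual degrees of freedom, the quasi-likelihood test, and Benjamini-Hochberg adjustment over all genes with a threshold of 0.05. Standard errors are |log2 fold change| over the root of its F statistic. CPM use TMM-scaled library sizes, and 3 counts correspond to at most 0.316 CPM. Gene names, exon lengths and promoters are those of RefSeq ASM294v3, which matched 12602 IDs and left 81 unmatched. Of the pathway lists, prs1 was left out because its reference product is another enzyme. The genes named are the members, their neighbours and overlapping genes, the 5 genes most like each set, and up to 4 called genes of each list, with further list genes named after their values were seen. Alternatives were library totals, median-of-ratios factors, a mean count minimum of 50, no filter, a fit of coding genes alone, only the libraries compared, DESeq2 1.42.0, a replicate block and leaving out each library. The fit was also run on simulated counts in which a small share of genes changed, in 1 comparison. That simulation does not bear on scaling where many genes change, as in these libraries.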

Additional observations from a re-analysis of the deposited data

Results flagged for a closer look

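The response of several members differed between a mutant and WT by the test of the difference itself. For ubp8 the log2 response minus that of WT was 2.02 in urg3 and 2.86 in uck2 (WT responses of -3.01 and -3.09). For ubp16 it was 4.75 in urg3 and 5.77 in uck2, genes that fell in WT and rose in ubp16. On the synthesis side the ubp16 value was -0.47 in ura1, -1.02 in ura3, -0.72 in ura4 and -0.75 in ura5. For urg1 and urg2, which were selected on their H2O2 responses, the ubp16 values were 8.05 and 6.97. In both genes the treated libraries lay below the untreated ones in WT and above them in ubp16. Since these same responses were used for the selection, that order is a description and no support. The difference was not tested, and the share of all genes with such an order was not counted.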

How the results depend on the processing

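The log2 responses of urg1, urg2, urg3 and uck2, and both interactions of urg3 and uck2, kept their direction in every alternative run. With scaling by library totals, members called went from 4 to 7 in the WT response, from 4 to 7 in the ubp8 response and from 5 to 2 in untreated ubp8 against WT. Over all genes, called higher and lower, it turned 2139 and 2207 into 1686 and 2948 in WT, 2290 and 2105 into 1425 and 3483 in ubp8, 2055 and 2056 into 1394 and 3040 in ubp16, and 1233 and 1947 into 2216 and 286 in untreated ubp8 against WT. All reversals were in values not called in the reported fit. With library totals these were ura4 in the WT response (-0.18), ura2 and ura4 in the ubp8 response (both -0.25), ura1 and ura2 in untreated ubp8 against WT (0.14 and 0.10), ura2 in treated ubp8 against WT (0.11) and ura4 in the ubp8 interaction (-0.0738). With no low-count filter they were ura2 and ura4 in the ubp8 response (-0.0206 and -0.0222) and ura4 in the ubp8 interaction (-0.0379). With a mean of at least 50 counts they were the same pair (-0.0261 and -0.0268), ura1 in untreated ubp8 against WT (0.0237) and ura4 in the ubp8 interaction (-0.0736). With coding genes only they were that pair (-0.0394 and -0.0401), ura1 in untreated ubp8 against WT (0.0144), and ura2 and ura4 in the ubp8 interaction (-0.0017 and -0.0831), and with only the libraries compared ura4 in the ubp8 interaction (-0.049). The cause was not tested. Leaving out 1 library gave 2 to 5 members called in untreated ubp8 against WT and 3.39 to 3.61 for the uracil-regulated minus synthesis median in ubp16. It reversed ura4 in the WT response (range -0.13 to 0.14), ura2 and ura4 in the ubp8 response (-0.13 to 0.0943 and -0.0251 to 0.0927), ura2 in treated ubp8 against WT (-0.19 to 0.0355), and ura2 and ura4 in the ubp8 interaction (-0.0687 to 0.22 and -0.15 to 0.21). With coding genes only, fewer genes were tested, and the calls of the coding genes changed too. In untreated ubp8 against WT, 320 coding genes were higher and 1901 lower in the reported fit, and 561 and 757 with coding genes only. In the ubp8 interaction these were 830 and 186, and 409 and 312. All genes called fell from 3180 to 1849 (mean of at least 50 counts) and 1318 (coding genes only) in untreated ubp8 against WT. In the ubp8 interaction all genes called fell from 1374 to 721 with coding genes only. With 1 library left out they fell to as few as 1183 in untreated ubp8 against WT, 1359 in untreated ubp16 against WT, 1632 in treated ubp8 against WT and 421 in the ubp8 interaction. Deviations of same-numbered libraries from their group means correlated weakly over genes, at 0.112 in WT, 0.18 in ubp8 and 0.144 in ubp16 between untreated and treated cells, and from -0.089 to 0.191 between other groups. With 2 numbers a group and no label that ties them, they were not taken to pair the libraries. A fit with the replicate block called 4, 4 and 6 members in the WT, ubp8 and ubp16 responses and changed no call of a tested member. All 81 member values kept their direction, including those of urg1 and urg2, which have no call. With 2 libraries a group, a log2 difference of -0.25 (ura2, untreated ubp16 against WT) did not pass the test in the reported fit.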
